A study of Mus musculus with 6 samples.

Results

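The lungs of mice injected with medium conditioned by PC3M-LN4 cells (LN4) were compared with the lungs of mice injected with plain RPMI medium (Control). The members are the 2 LN4 and 2 Control samples, 4 of the 6 in the series, chosen by their labels. The other 2 lungs came from mice given medium conditioned by PC3 cells. PC3 is a human prostate cancer cell line and PC3M-LN4 a metastatic derivative of it. All mice were C57BL/6 (written B6 in the protocol) and 8 weeks old when treated, and received 100 uL intraperitoneally each day for 7 days, with no tumour implanted as far as the labels say. Each array was hybridised with cRNA made from 10 ug of total RNA of minced lung and holds 1 sample. The labels do not say whether a sample was 1 animal, so the spread between arrays may be partly technical. Throughout, Control values are given for replicates 2 and 4 and LN4 values for replicates 1 and 3, in that order, as log2 RMA values. RMA is a background-corrected, quantile-normalised summary of the probes of a gene.

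Factors that tumour cells release can alter a distant organ before any tumour cell arrives. In the lung, such changes are described for the capillary endothelium, the pericytes and matrix around it, and recruited myeloid cells. Thrombospondin-1, encoded by Thbs1, is a secreted inhibitor of new vessel growth. Prosaposin, encoded by Psap, is the precursor of the lysosomal saposins and can also be secreted. By its title, the series concerns prometastatic lungs and lungs resistant to metastasis.

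Lung markers were high on every array. Of 7 lung epithelial markers and 4 endothelial markers, all lay above the 95th percentile of the negative control probe sets, a level of 7.37 to 7.69 log2 units that is called the background level here. LN4 replicate 3 stood apart: its correlation with the other arrays was 0.918 to 0.933, against 0.961 to 0.99 among the others, and 553 of 21330 tested probe sets were over 2-fold higher in it than on every other array. These included genes of squamous epithelium and skeletal muscle, so values are given for each LN4 array. Percent of exon-level probe sets detected also differed, at 38.4% and 48.4% in the Control arrays and 35.4% and 46.1% in the LN4 arrays. LN4 replicate 1 was therefore paired with Control replicate 2, the pair of lower detection, and LN4 replicate 3 with Control replicate 4.

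No probe set passed an adjusted p of 0.05 (limma with Benjamini-Hochberg adjustment over 21330 probe sets, percent called 0, smallest adjusted p 0.9997). At an unadjusted p under 0.05 there were 437, of which 181 were higher (0.849%) and 256 lower (1.20%) in LN4. Beside the test, the arrays were read for separation. Over 17011 genes, both LN4 arrays lay above both Control arrays for 12.4% and below both for 17.0%. These shares are the background for the counts of separated genes below. Counts for a single LN4 array have other shares, given beside them. A separation of at least 1.5-fold between the nearest LN4 and Control arrays was met by 14 probe sets upward (0.0656%) and 15 downward (0.0703%).

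The count of calls depended on which arrays were fitted. With LN4 replicate 1 left out, 853 probe sets passed. With LN4 replicate 3 and PC3 replicate 4, the other array with squamous genes, left out, 200 passed. With LN4 replicate 3 alone left out, none passed. Each of these fits judges a single LN4 array and assumes that it varies like the arrays of the other groups. Most genes named below were chosen for separation on these same arrays, so a pass in such a fit is no support for them.

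The genes the study is about came first. Thbs1 read 9.50 and 9.88 in the Control lungs and 9.21 and 8.98 in the LN4 lungs. The LN4 values were both under the Control values, with a difference of means of -0.59 (SE 0.23, n = 2 and 2, limma adjusted p = 0.9997). Psap read 12.05 and 12.24 against 11.99 and 11.98, and its difference of -0.15 was smaller than its SE of 0.17. Thbs3, a related thrombospondin, read 8.23 and 8.31 against 7.89 and 7.83. Receptors of thrombospondin-1 were also lower on both LN4 arrays. Cd47 read 10.48 and 10.69 against 10.20 and 10.13. Cd36, which is also a fatty acid carrier, read 11.83 and 12.12 against 11.60 and 11.65. In the list of thrombospondins, prosaposin and their receptors, 7 of 13 tested members had both LN4 arrays below both Control arrays and 1 had both above. The median difference of the list was -0.15, against -0.01 over all tested genes. With the dimmest 50% of probe sets left out, the 8 members left had a median of -0.38. Without LN4 replicate 3 the difference of Thbs1 was -0.48.

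The gene with the widest upward separation was Zbtb16, a zinc finger transcription factor that glucocorticoids induce. Glucocorticoids act through a nuclear receptor that binds DNA near its target genes, and Fkbp5, Zbtb16 and Tsc22d3 are among the genes it is known to induce. Zbtb16 read 8.27 and 8.32 in the Control lungs and 9.62 and 9.34 in the LN4 lungs. Both LN4 arrays were at least 2.03-fold above both Control arrays, and the difference of means was 1.18 (SE 0.19, 2.27-fold, limma adjusted p = 0.9997). Its difference was 1.05 with LN4 replicate 3 only and 1.32 with LN4 replicate 1 only. Fkbp5, which binds Hsp90 and tempers the glucocorticoid receptor, read 7.21 and 7.51 against 8.12 and 8.61. Its difference was 1.01 (SE 0.23), and it was 1.25 with LN4 replicate 3 only and 0.77 with LN4 replicate 1 only. The Control values of Fkbp5 lay under the background level.

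Map3k6, a stress-activated kinase, read 6.59 and 7.33 against 7.81 and 8.33, with both Control values under background. Pdk4, which curbs the entry of pyruvate into mitochondria, read 5.97 and 6.16 against 6.93 and 7.40, so only LN4 replicate 3 reached the background level. Angptl4, an inhibitor of lipoprotein lipase, read 6.59 and 6.57 against 7.34 and 7.04, all under background. Other textbook targets did not separate. Tsc22d3, which encodes GILZ, read 8.76 and 9.21 against 9.41 and 8.97. Klf9 read 8.65 and 9.06 against 9.31 and 8.998. Sgk1 read 7.77 and 8.04 against 7.44 and 8.30. Tsc22d3 and Klf9 were above both Control arrays in LN4 replicate 1 only. Over the list of glucocorticoid response genes, 7 of 23 tested members separated upward and 1, Dusp1, downward. LN4 replicate 1 alone was above both Control arrays for 16 of 23 members, where 37.8% of all genes were, and LN4 replicate 3 for 9 of 23, where 31.6% were. The list median was 0.20, and it was 0.03 without Control replicate 2. In the pair of lower detection it was 0.19, and in the pair of higher detection -0.06, so the list as a whole was not higher in both pairs. Hsd11b1, the enzyme that regenerates active glucocorticoid inside cells, read 8.51 and 8.76 against 8.01 and 7.90. It was among the 15 genes with the widest downward separation of those above background on both Control arrays.

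Immediate early genes lay on the other side. They are transcribed within minutes of a stimulus, many through serum response factor or CREB, and encode transcription factors and feedback phosphatases. Ccn1, a matricellular protein that endothelial and mesenchymal cells secrete, and Nr4a1, an orphan nuclear receptor, had the widest separations of the 15 named lower genes. The promoters of Nr4a1, Ccn1 and Dusp1 are shown because each holds TGACG, the core of the cAMP response element that CREB binds. They span 250 bases before to 50 after the start of the gene and come from RefSeq on GRCm38.p6. Capitals mark TGACG, or CGTCA where it lies on the other strand. The motif was searched on both strands, and it was chosen after the lower genes were known.

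Nr4a1 (chr15:101266596-101266895, plus strand): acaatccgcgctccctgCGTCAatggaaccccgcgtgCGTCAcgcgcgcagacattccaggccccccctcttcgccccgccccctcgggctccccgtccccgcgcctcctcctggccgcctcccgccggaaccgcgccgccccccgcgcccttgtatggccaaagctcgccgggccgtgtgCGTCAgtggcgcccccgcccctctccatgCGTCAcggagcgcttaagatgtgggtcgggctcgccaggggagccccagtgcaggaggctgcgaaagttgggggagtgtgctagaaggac

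Ccn1 (chr3:145649936-145650235, minus strand): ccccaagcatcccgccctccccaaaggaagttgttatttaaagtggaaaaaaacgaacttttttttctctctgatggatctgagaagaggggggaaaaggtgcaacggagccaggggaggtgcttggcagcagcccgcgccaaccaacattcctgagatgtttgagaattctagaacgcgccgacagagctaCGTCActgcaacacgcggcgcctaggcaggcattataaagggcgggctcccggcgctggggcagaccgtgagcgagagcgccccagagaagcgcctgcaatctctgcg

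Dusp1 (chr17:26508423-26508722, minus strand): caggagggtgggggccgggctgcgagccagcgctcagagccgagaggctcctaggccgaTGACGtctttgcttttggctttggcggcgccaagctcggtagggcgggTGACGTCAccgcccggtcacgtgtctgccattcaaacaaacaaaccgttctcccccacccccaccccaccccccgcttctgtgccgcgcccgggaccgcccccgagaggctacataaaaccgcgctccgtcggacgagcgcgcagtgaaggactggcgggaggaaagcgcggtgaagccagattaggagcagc

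The Nr4a1 window held 4 copies, the Ccn1 window 1 and the Dusp1 window 3. In Dusp1, the full palindrome TGACGTCA holds a copy on each strand, and these overlap. TGACG was present in 20.81% of 32851 mouse promoters of the same length, and the full palindrome in 1.79%. Of the 15 named lower genes, 10 had a promoter entry and 7 of those held TGACG. Of the 15 named higher genes, 11 had an entry and 4 held it. In the immediate early list, 16 of 24 promoters held it, and among members that separated downward 7 of 11. The share over all promoters was not matched to these genes for base composition. A match is a description of these letters and shows no binding.

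Ccn1 read 10.36 and 10.43 in the Control lungs and 9.40 and 9.30 in the LN4 lungs. The LN4 arrays agreed closely and were at least 1.94-fold below both Control arrays, with a difference of -1.04 (SE 0.17, limma adjusted p = 0.9997). On the single LN4 arrays, its difference was -1.09 for replicate 3 and -0.99 for replicate 1. Nr4a1 read 8.79 and 9.20 against 7.90 and 7.71, a difference of -1.19 (SE 0.21). Its difference was -1.28 with LN4 replicate 3 only and -1.096 with LN4 replicate 1 only. Dusp1, a phosphatase that switches off MAP kinases and is also a glucocorticoid target, read 10.70 and 11.07 against 10.18 and 10.12. Its difference was -0.74 (SE 0.20).

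Members of the AP-1 and Egr families followed with smaller separations. Jun read 9.88 and 9.85 against 9.48 and 9.44. Fos read 7.73 and 7.56 against 7.17 and 7.23, near the background level. Egr1 read 7.85 and 7.52 against 7.28 and 7.24, with both LN4 values under background. These 3 genes had both LN4 arrays below both Control arrays. The next genes were named after their values were seen. Zfp36, which destabilises cytokine mRNAs, read 8.77 and 8.92 against 8.45 and 8.35. Klf2, a flow-induced factor of endothelium, read 9.14 and 9.31 against 8.93 and 8.16. Atf3, a stress factor, read 7.19 and 7.24 against 6.65 and 6.49, all under background. The pattern did not extend to every member. Junb read 7.33 and 7.31 against 7.42 and 7.65, and Fosl2 read 8.45 and 8.30 against 8.54 and 8.54, each with both LN4 arrays above both Control arrays. Myc read 6.38 and 6.56 against 6.72 and 8.74, high in LN4 replicate 3. In all, 13 of 30 tested members separated downward and 4 upward, with a list median of -0.16. LN4 replicate 1 alone was below both Control arrays for 15 of 30, where 32.8% of all genes were, and LN4 replicate 3 for 21 of 30, where 46.7% were.

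Among CCN proteins and targets of the YAP coactivator, 7 of 17 tested members separated downward and 0 upward. Ccn2, the closest relative of Ccn1, read 10.35 and 10.48 against 10.25 and 9.66, so it was low mainly in LN4 replicate 3. Ccn3 read 6.98 and 7.16 against 6.80 and 6.45, under background. Arhgef17 read 8.39 and 8.36 against 8.22 and 7.92. Amotl2 read 9.25 and 9.38 against 9.16 and 8.98. Axl, a receptor tyrosine kinase, read 8.64 and 8.66 against 8.47 and 8.48. Ankrd1, another YAP target, read 7.70 and 7.73 against 7.78 and 7.26 and did not separate.

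**Figure D1:**
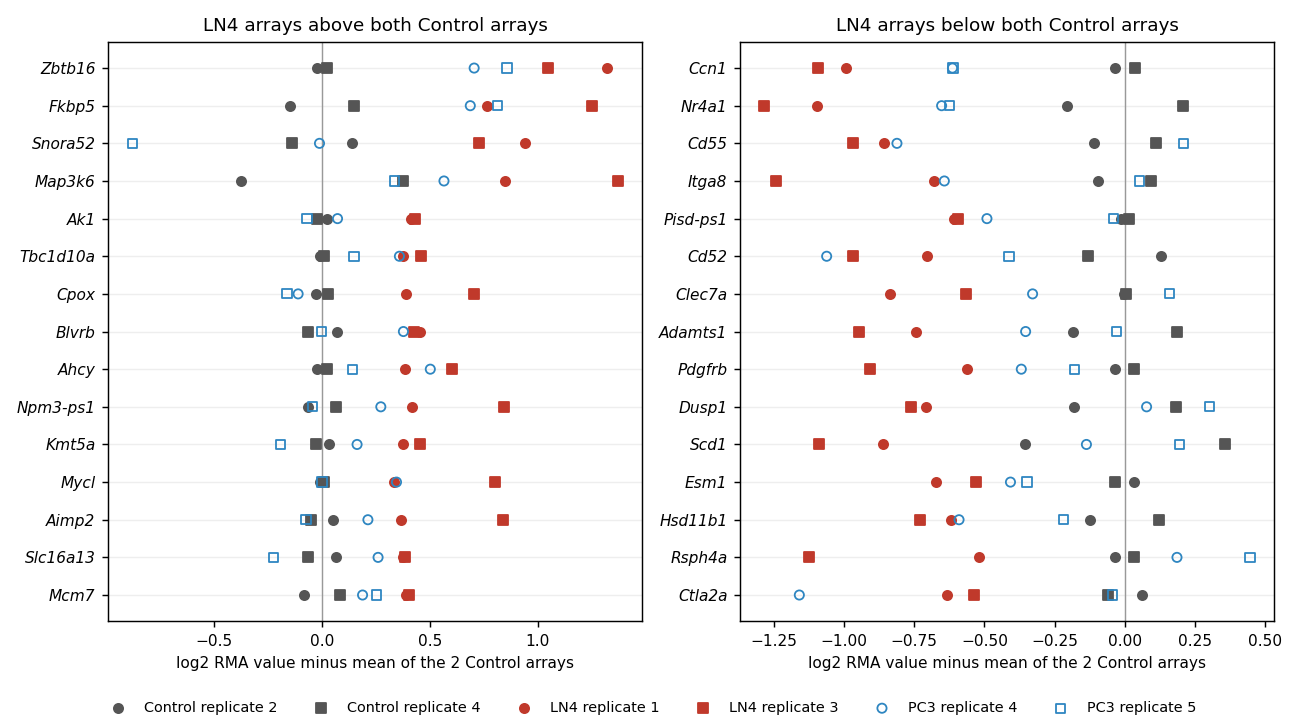
Values of 30 genes, 15 in each direction, as log2 RMA value minus the mean of the 2 Control arrays. These had the widest separation between LN4 and Control arrays among genes with both arrays of the higher group above background. Each point is 1 array, with circles for the pair of lower detection and squares for the pair of higher detection, red for LN4, grey for Control and open blue for PC3. By the choice of genes the red points lie apart from the grey ones in every row. In Zbtb16, Fkbp5, Ccn1 and Nr4a1 the PC3 arrays lie between the Control and LN4 means.

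The other genes in the upward set had separations of 0.31 to 0.59 log2 units. Snora52, a small nucleolar RNA that guides pseudouridylation, read 8.59 and 8.31 against 9.39 and 9.18. Ak1, adenylate kinase 1, read 7.95 and 7.91 against 8.34 and 8.36. The 2 arrays of each group were close together in Ak1, and its difference was 0.42 (SE 0.17). In addition, 2 enzymes of haem handling were present. Cpox, which makes protoporphyrinogen, read 7.75 and 7.80 against 8.16 and 8.48. Blvrb, a biliverdin reductase, read 7.67 and 7.54 against 8.06 and 8.03. Both were higher on each LN4 array. Ahcy, which hydrolyses S-adenosylhomocysteine after methylation reactions, read 7.96 and 8.01 against 8.37 and 8.59. Kmt5a, the histone H4 lysine methyltransferase, read 9.004 and 8.94 against 9.35 and 9.43. The remaining 6 were Tbc1d10a, Npm3-ps1, Mycl, Aimp2, Slc16a13 and Mcm7. Npm3-ps1 is a pseudogene, and its probes may read its parent gene. For 10 of the 15, the unadjusted limma p was under 0.05, where 0.849% of all probe sets were higher at that level. The 15 were chosen for separation on the same arrays, so this count is no support for them.

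Other genes of the downward set had these values. Cd55, which protects cells from complement, read 8.35 and 8.57 against 7.60 and 7.50. Its difference was -0.91 (SE 0.33). Itga8, an integrin chain of pericytes and myofibroblasts, read 9.19 and 9.37 against 8.60 and 8.03. Its lowest array was LN4 replicate 3. Pdgfrb, the PDGF receptor of pericytes, read 8.66 and 8.73 against 8.13 and 7.78. In both genes LN4 replicate 1 was also below the Control lungs. Adamts1, a secreted protease that cleaves versican and thrombospondins, read 8.91 and 9.28 against 8.35 and 8.15. Clec7a, the beta-glucan receptor of myeloid cells, read 7.99 and 8.00 against 7.16 and 7.43, both LN4 values near or under background. Cd52, a surface glycoprotein of lymphocytes, read 8.89 and 8.63 against 8.05 and 7.79. In Cd52 and Clec7a the 2 groups did not overlap. Ctla2a read 10.05 and 9.93 against 9.36 and 9.45, and its near copy Ctla2b may share probes. Pisd-ps1, a pseudogene, read 9.61 and 9.63 against 9.01 and 9.03. For 14 of the 15, the unadjusted limma p was under 0.05, where 1.20% of all probe sets were lower at that level. These genes too were chosen for separation on the same arrays, so the count is no support for them.

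Most tested genes of the endothelial list and of the VEGF and angiopoietin list were lower on both LN4 arrays. Endothelial cells are marked by Pecam1, Cdh5 and the receptors Kdr and Tek, and VEGF and angiopoietins signal to them through Kdr, Flt1, Tek and Tie1. In whole lung, fewer cells of a type and less RNA per cell cannot be told apart. Of 20 tested endothelial genes, 14 separated downward and 1, Sox18, upward, which is 70.0% against the 17.0% of all genes. LN4 replicate 1 alone was below both Control arrays for 14 of 20 and LN4 replicate 3 for 19 of 20. Over all genes these shares were 32.8% and 46.7%. The shifts were small in LN4 replicate 1. The median of the list was -0.09 in the pair of lower detection and -0.40 in the pair of higher detection.

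Kdr, the main VEGF receptor, read 10.33 and 10.58 against 10.11 and 9.79. Emcn, endomucin of capillaries and veins, read 8.46 and 8.63 against 8.04 and 8.05. The 2 LN4 arrays agreed in Emcn, and its difference was -0.50 (SE 0.26). Ednrb, the endothelin receptor of lung capillaries, read 8.18 and 8.44 against 7.84 and 8.03. Eng, a TGF-beta co-receptor, read 9.92 and 10.08 against 9.77 and 9.76. Neither overlapped between groups. Cldn5, a tight junction protein, read 10.42 and 10.55 against 10.24 and 10.15. Pecam1 read 10.36 and 10.35 against 10.29 and 9.87, so LN4 replicate 1 was close to the Control arrays. Vwf, made by large vessels, read 10.61 and 10.70 against 10.69 and 10.39 and did not separate. Sox18 read 8.84 and 8.47 against 9.06 and 8.92.

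In the list of VEGF and angiopoietin ligands and receptors, 12 of 17 tested members separated downward and 0 upward. An unadjusted limma p under 0.05 was met by 4, where 0.849% of all probe sets were higher and 1.20% lower at that level. Of the ligands, Vegfa read 10.89 and 11.00 against 10.85 and 10.58. Angpt2, which destabilises vessels, read 6.65 and 6.39 against 6.08 and 6.06, and Angpt1 read 6.83 and 7.10 against 6.51 and 6.49, all under background. Among receptors and co-receptors, Nrp1 read 9.81 and 10.09 against 9.57 and 9.47. Aplnr, the apelin receptor, read 7.95 and 7.85 against 7.47 and 7.18. Esm1, a proteoglycan of tip cells that VEGF induces, read 8.05 and 7.99 against 7.35 and 7.49. Aplnr and Esm1 were lower than in the Control lungs on each LN4 array. Without LN4 replicate 3, the list median was -0.10 for VEGF and angiopoietin genes and -0.09 for endothelial genes.

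Pericytes, smooth muscle and fibroblasts showed a mixed picture, with 7 of 18 tested members separating downward and 2 upward. Pdgfrb was described above. Pdgfra, of lung fibroblasts, read 9.06 and 9.54 against 9.03 and 8.64. Acta2, smooth muscle actin, read 9.65 and 9.70 against 9.21 and 9.51. Mcam, of pericytes and endothelium, read 9.61 and 9.68 against 9.48 and 9.11. Fn1, fibronectin, read 9.88 and 9.82 against 9.51 and 9.42, with both groups tight. Myh11 read 8.04 and 8.10 against 8.20 and 7.80 and did not separate. Des, desmin, read 7.60 and 7.56 against 7.70 and 9.47, high in LN4 replicate 3, where skeletal muscle genes were high. Of collagen and matrix genes, 8 of 23 separated downward and 1 upward, and 20 of 23 were lower in both detection pairs, where 27.9% of all genes were. Lamc1 and Nid1, of basement membranes, were among them: Lamc1 read 9.13 and 9.10 against 8.94 and 8.56, and Nid1 read 8.08 and 8.01 against 7.85 and 7.74. Bgn, biglycan, read 10.64 and 10.77 against 10.40 and 10.10. Fbn1, fibrillin-1, read 8.44 and 8.32 against 8.10 and 7.80. Col1a1 read 10.67 and 9.71 against 10.33 and 9.24 and did not separate, the Control arrays being far apart.

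Integrins and metalloproteinases gave further lower members. Of integrins and syndecans, 9 of 20 separated downward and 0 upward. Itga4, the chain of VLA-4 on leukocytes, read 8.11 and 8.38 against 7.72 and 7.45. Itga5, a fibronectin receptor chain, read 7.22 and 7.42 against 6.88 and 7.00, under background. Itga1, a collagen receptor chain, read 9.47 and 9.49 against 9.27 and 9.02. Itgb1 read 10.77 and 10.93 against 10.62 and 10.52. Of metalloproteinases and their inhibitors, 9 of 23 separated downward and 0 upward. Mmp3, stromelysin, read 6.54 and 6.37 against 5.80 and 5.78, and Mmp12, the macrophage elastase, read 6.47 and 5.79 against 5.51 and 5.12, both under background. Adamts10 read 8.67 and 8.76 against 8.43 and 8.30. Mmp9 read 5.96 and 6.33 against 6.03 and 5.92 and did not separate. Timp2 read 10.56 and 10.61 against 10.44 and 10.12.

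Alveolar type 2 cells make surfactant and its lipids. Of 18 tested genes of these cells, 12 separated downward and 0 upward. LN4 replicate 1 alone was below both Control arrays for 15 of 18, where 32.8% of all genes were. The median was -0.17 in the pair of lower detection and -0.67 in the other. Scd1, which desaturates fatty acids, read 11.56 and 12.27 against 11.05 and 10.82, a difference of -0.98 (SE 0.28). Abca3, which loads surfactant lipid into lamellar bodies, read 10.20 and 10.44 against 9.88 and 9.61. Cxcl15, a lung chemokine, read 12.12 and 12.43 against 11.79 and 11.55. Lamp3, of lamellar bodies, read 10.43 and 10.65 against 10.04 and 10.14. Fasn read 10.39 and 10.74 against 10.24 and 10.03. The surfactant proteins differed less. Sftpc read 14.03 and 14.02 against 13.91 and 13.87. Sftpb read 12.68 and 12.77 against 12.70 and 12.09, and Sftpa1 read 13.39 and 13.57 against 13.49 and 13.30, without separation.

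Genes of ciliated airway cells were low mainly in LN4 replicate 3. Foxj1, the master factor of ciliated cells, read 8.65 and 8.65 against 8.84 and 7.81. Dnah5, an axonemal dynein, read 8.90 and 9.22 against 8.99 and 7.84. Ccdc40 read 7.24 and 7.43 against 7.02 and 6.41, under background. LN4 replicate 3 was below both Control arrays for all 16 tested ciliated genes and LN4 replicate 1 for 3. Over all genes these shares were 46.7% and 32.8%. Rsph4a, a radial spoke protein outside that list, read 7.98 and 8.04 against 7.49 and 6.89. Of club and secretory genes, Scgb1a1 read 13.93 and 13.93 against 13.76 and 13.64. Hp, haptoglobin, read 12.80 and 12.89 against 12.73 and 12.26. Bpifa1 read 11.64 and 12.16 against 12.24 and 9.65, and Muc5b read 9.90 and 10.21 against 10.50 and 8.05, each highest in LN4 replicate 1 and lowest in LN4 replicate 3. The squamous markers that were high in LN4 replicate 3 are given further on, and their part in these differences was not tested.

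B cell genes had the largest share of members separated downward among the 57 lists. B cells are marked by Ms4a1 and the receptor chains Cd79a and Cd79b. Of 16 tested genes, 14 separated downward (87.5%) and 0 upward, and the median difference was -0.59. An unadjusted limma p under 0.05 was met by 10, where 0.849% of all probe sets were higher and 1.20% lower at that level. LN4 replicate 1 alone was below both Control arrays for 15 of 16, where 32.8% of all genes were. Cd79b read 8.09 and 8.10 against 7.66 and 7.35. Cd79a read 7.57 and 7.64 against 7.13 and 6.68. Fcer2a, the low-affinity IgE receptor of mature B cells, read 6.10 and 6.18 against 5.17 and 5.19. Fcmr, the IgM receptor, read 7.36 and 7.43 against 6.96 and 6.53. All 4 genes were lower on both LN4 arrays, and most of the list was dim. Ms4a1, which encodes CD20, read 5.87 and 6.25 against 5.19 and 5.58, under background. The list was also lower in the PC3 lungs, with a median of -0.29 for PC3 minus Control. For LN4 minus PC3, the list median was -0.27. The summed level of 4 B cell markers was 618.5 and 684.5 in the Control lungs. It was 440.1 and 474.1 in the PC3 lungs and 467.2 and 379.9 in the LN4 lungs.

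Antigen presentation and T cell genes were lower to a smaller extent. Among genes of dendritic cells and MHC class II, 7 of 15 separated downward and 0 upward. H2-Aa, a class II chain, read 11.00 and 10.76 against 10.57 and 9.86. Its partner H2-Ab1 read 10.92 and 10.64 against 10.53 and 9.51. Flt3, the receptor that dendritic cell precursors need, read 6.00 and 5.99 against 5.83 and 5.61, under background. Cd74, the invariant chain, read 11.62 and 11.42 against 11.20 and 10.18, and H2-Ob, a class II chain used mainly by B cells, read 7.36 and 7.75 against 7.04 and 6.36. Of the 4 arrays, LN4 replicate 3 was the lowest in all these genes. Of T cell genes, 8 of 20 separated downward and 1 upward. Cd2 read 8.34 and 8.36 against 7.92 and 7.67. Ccr7, the homing receptor of naive T cells, read 6.81 and 6.85 against 6.45 and 6.19, under background. Cd3g read 6.60 and 6.75 against 6.36 and 5.95, and Cd8a read 6.32 and 6.40 against 6.16 and 5.98, under background. Cd3e read 6.74 and 6.51 against 6.87 and 6.16, Cd4 read 5.22 and 5.15 against 5.39 and 5.01, and neither separated. All 4 T cell markers of the tissue check, Cd3e, Cd3g, Cd4 and Cd8a, lay under background on every array.

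**Figure D2:**
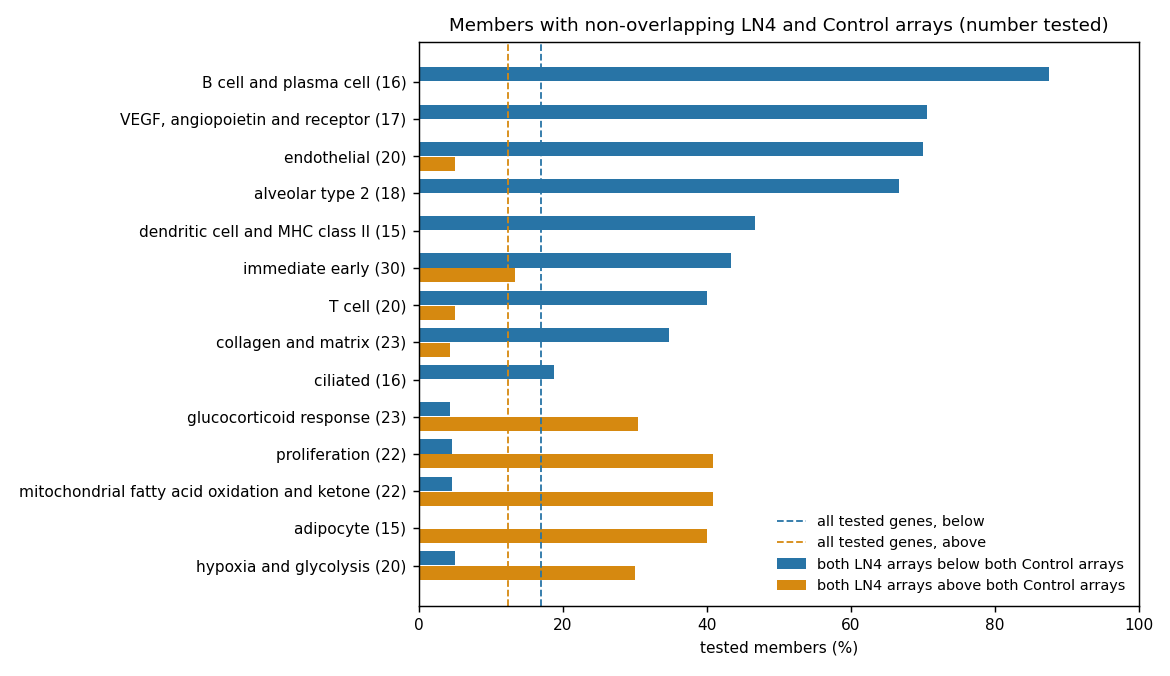
Share of tested members of 14 gene lists, in percent, whose 2 LN4 arrays both lay below (blue) or both above (orange) the 2 Control arrays, with the number tested after each name. Dashed lines mark the same share over all tested genes, 17.0% below and 12.4% above, and the B cell, VEGF, endothelial and alveolar type 2 bars reach 66.7% to 87.5%.

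Several genes of fatty acid oxidation were higher on both LN4 arrays. Mitochondria take up long-chain fatty acids through carnitine palmitoyltransferases and break them down by beta-oxidation, under control of PPAR receptors. Of 22 tested genes, 9 separated upward and 1, Decr1, downward, and the median difference was 0.19. Both detection pairs had a higher value for 14 of 22 genes, where 25.01% of all genes did. Cpt1b, the muscle form of the transferase, read 5.80 and 6.03 against 6.29 and 7.11, and Ucp3 read 5.77 and 6.01 against 6.34 and 6.27, all under background. Acadvl, which oxidises very long chains, read 8.86 and 8.71 against 8.97 and 9.04. Cpt1a, the form most lung cells use, read 8.89 and 8.94 against 8.93 and 9.29 and did not separate. Pdk4 and Angptl4 belong to this list as well as to the glucocorticoid list. Muscle genes were high in LN4 replicate 3, and their part in the values of Cpt1b and Ucp3 was not tested.

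Of 15 tested adipocyte genes, 6 separated upward and 0 downward. Car3 read 7.37 and 8.79 against 9.04 and 10.24. Ucp1, of brown fat, read 4.83 and 4.51 against 5.36 and 6.45, and Cidea read 5.79 and 5.25 against 5.97 and 6.24, both under background. Lipe, hormone-sensitive lipase, read 7.44 and 7.59 against 7.81 and 7.88, and Plin4 read 6.74 and 6.44 against 6.99 and 6.95. Adipoq read 4.44 and 5.41 against 5.55 and 4.22 and did not separate. The summed level of 4 adipocyte markers was 168 and 172 in the Control lungs and 239 and 239 in the LN4 lungs, with all 4 markers under background on every array. Genes of hypoxia and glycolysis were high in LN4 replicate 3. Egln3, an oxygen sensor, read 4.87 and 4.99 against 5.45 and 9.80. Eno1 read 9.68 and 9.82 against 9.67 and 10.98, and Ldha read 10.53 and 10.74 against 10.32 and 11.59. LN4 replicate 1 was above both Control arrays for 6 of 20 members of this list and LN4 replicate 3 for 17 of 20. Over all genes these shares were 37.8% and 31.6%. Vegfa was lower on both LN4 arrays.

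Cell cycle genes were dim, and most differences were small. Of 22 tested, 9 separated upward and 1 downward, with a median of 0.18. Rrm2, which makes deoxynucleotides, read 6.05 and 6.02 against 6.58 and 6.37. Ccna2 read 5.46 and 5.78 against 6.03 and 6.16, and Cdk1 read 6.10 and 5.94 against 6.34 and 6.47. All these values lay under background. Mki67 read 6.28 and 6.42 against 6.25 and 6.82, and Pcna read 9.54 and 9.63 against 9.57 and 9.70, without separation. With the dimmer probe sets left out by a filter at the median, 1 member of the list separated upward. Mcm7, of the replicative helicase and in the upward set above, read 7.31 and 7.47 against 7.78 and 7.80. Of 13 replication-dependent histone genes, 5 separated upward and 0 downward. H1f5 read 7.30 and 7.33 against 7.44 and 8.13. H2ac18 read 11.17 and 11.15 against 11.39 and 11.43, and histone copies of near-identical sequence may share probes.

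The high levels of squamous and skeletal muscle genes were in LN4 replicate 3, which was above both Control arrays for 18 of 19 squamous and 21 of 21 muscle genes, against 31.6% of all genes. Both LN4 arrays lay above both Control arrays for 11 of 19 squamous (57.9%) and 13 of 21 muscle genes (61.9%), against 12.4% of all genes. LN4 replicate 1 alone was above both for 12 of 19 and 13 of 21, where 37.8% of all genes were. Krt13, a keratin of stratified epithelium, read 5.16 and 4.63 in the Control lungs, 5.09 in LN4 replicate 1 and 13.61 in LN4 replicate 3. It read 10.63 and 5.06 in the PC3 lungs. Acta1, skeletal muscle actin, read 6.70 and 6.58 in the Control lungs, 6.87 in LN4 replicate 1 and 12.04 in LN4 replicate 3. The summed level of 4 squamous markers was 123 and 109 in the Control lungs, 146 in LN4 replicate 1 and 38951 in LN4 replicate 3. That of 4 skeletal muscle markers was 258 and 232, then 274 and 7199. On LN4 replicate 1, none of these 8 markers lay above background. The list medians were 3.02 for squamous and 2.00 for skeletal muscle genes over both arrays, and 0.13 and 0.05 in the pair of lower detection. Krt15, a basal keratin, read 6.02 and 6.19 against 7.07 and 11.68, so LN4 replicate 1 was also above the Control lungs, under background.

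**Figure D3:**
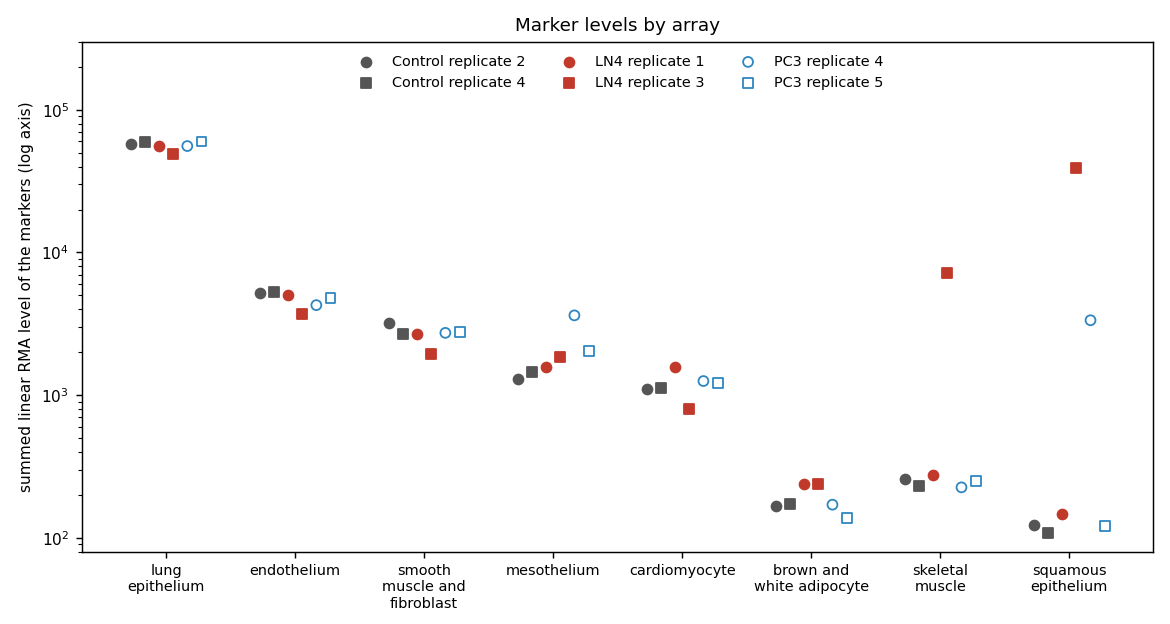
Summed linear RMA level of the markers of 8 cell types on each array, on a log axis. Each point is 1 array, red for LN4, grey for Control and open blue for PC3, and LN4 replicate 3 stands at 38951 for squamous and 7199 for skeletal muscle markers while LN4 replicate 1 lies with the Control arrays.

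Both detection pairs can be set side by side, since they share no array. Across 17011 genes, the log2 difference of LN4 replicate 1 from Control replicate 2 and that of LN4 replicate 3 from Control replicate 4 had a Pearson r of 0.09 and a Spearman rho of 0.11, given as a description across genes, which are not independent. Differences were higher in both pairs for 25.01% of genes and lower in both for 27.9%. Of 167 genes at least 1.5-fold higher in the first pair, 85 were higher in the second. Of 104 genes at least 1.5-fold lower in the first pair, 72 were lower in the second. The second pair held 870 genes that differed by 2-fold or more, and the first 17. Of 57 gene lists, 34 had medians of one sign in both pairs, and in 50 the median lay farther from 0, in either direction, in the second pair.

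**Figure D4:**
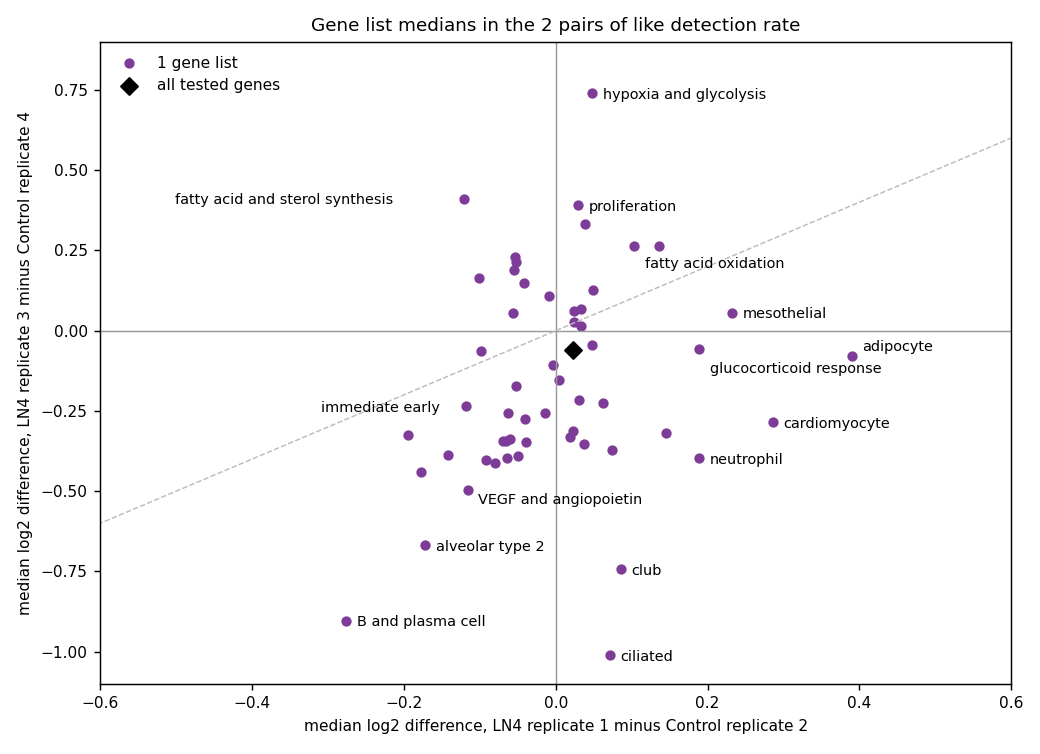
Median log2 difference of each gene list in the pair of lower detection (x axis) and the pair of higher detection (y axis), 1 point per list, with the median of all tested genes as a diamond and the line of equal values dashed. Squamous and skeletal muscle genes, at 5.74 and 3.78 on the y axis, are left out, and the B cell, alveolar type 2, VEGF and immediate early lists lie below 0 on both axes.

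For the named genes, the LN4 lungs were also set against the PC3 lungs, which asks whether a difference from plain medium is larger with the metastatic line. No probe set passed an adjusted p of 0.05 for LN4 minus PC3 (percent called 0), and 1094 had an unadjusted p under 0.05 (5.13%). Zbtb16 read 8.999 and 9.15 in the PC3 lungs, between the Control and LN4 values, and its difference LN4 minus PC3 was 0.40 (SE 0.19). Ccn1 read 9.78 and 9.78, also between, with a difference of -0.43 (SE 0.17). Nr4a1 read 8.34 and 8.37, with a difference of -0.55 (SE 0.21). Fkbp5 read 8.04 and 8.17, overlapping the LN4 values, with a difference of 0.26 (SE 0.23). PC3 minus Control shares the Control lungs. It had the sign of LN4 minus Control for 12 of 15 higher and 12 of 15 lower genes. LN4 minus PC3 had that sign for 15 higher and 14 lower genes. The comparisons of LN4 with Control and with PC3 share the LN4 lungs, and the named genes were chosen for LN4 values far from the Control values.

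Values of other named genes in the PC3 lungs follow, none past the adjusted threshold. Dusp1 read 10.96 and 11.19 in the PC3 lungs, close to the Control values, with a difference LN4 minus PC3 of -0.93 (SE 0.20). Scd1 read 11.77 and 12.10, with a difference of -1.01 (SE 0.28). Thbs1 read 9.58 and 9.95, with a difference of -0.67 (SE 0.23). For these 3 genes the LN4 values were under all PC3 and Control values. Snora52 read 8.44 and 7.57 in the PC3 lungs, and Cpox 7.66 and 7.61, both below the LN4 lungs. Cd52 read 7.70 and 8.35 and Ctla2a 8.83 and 9.95, and the LN4 values of these genes lay within the PC3 range. The smallest adjusted p for LN4 minus PC3 among the named genes was 0.8424 (limma).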

How the data were processed

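Gene expression was measured on 6 Affymetrix mouse gene arrays, 2 each of Control, LN4 and PC3 lungs. The log2 values were deposited by the authors after RMA, per the submitters' processing notes, which give no version; the gene-level table and the series values were equal at all 213336 positions. The chip report, per the file headers, gives the percent of exon-level probe sets detected, raw intensity, an area-under-curve fraction and residual scores. Depth does not apply to arrays: their number limits the precision.

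Of 35556 probe sets, 7116 controls and probe sets with no annotation were left out, then the dimmest 25% by mean, which left 21330. Names came from RefSeq by accession (22271 probe sets), symbol (1412) or older symbol (557); 764 kept the file's name and 3434 had none. A gene was read from its brightest probe set. limma 3.58.1 in R 4.3.3 fitted 3 group means over 6 arrays, two-sided, with Benjamini-Hochberg adjustment. On simulated data at the residual spread of the 6 arrays, it recovered 4 of 100 changes of 1 log2 unit. It recovered 62 of 100 changes of 2 units. At the spread of the 2 Control arrays, it recovered 51 and 72. Unchanged probe sets called numbered 1 and 10 at these spreads. Named genes are the 15 in each direction with the widest separation between LN4 and Control arrays and both arrays of the higher group above background, plus Thbs1, Psap and members of each list. Some results are not reported here. Members and the 57 gene lists were chosen with earlier results of these data known. List members were described by counts and medians, with no test. Alternatives were other filters, centring, a detection-pair block, a trended robust prior, and arrays or raised probe sets left out; counts of separated list members under them were added after seeing the data.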

Additional observations from a re-analysis of the deposited data

How the results depend on the processing

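No paired analysis was possible because the LN4 replicates (1 and 3) and Control replicates (2 and 4) share no number; the pairs by detection rate come from the chip report, not from the labels. Over the alternatives, the named genes kept their direction; 434 of their values stayed on the same side of the adjusted p, and 14 passed it. With arrays left out one at a time, the probe sets past adjusted p ranged from 0 to 853, those at an unadjusted p under 0.05 from 51 to 3473, and those with a separation of at least 1.5-fold from 45 to 1388 higher and from 53 to 961 lower where an LN4 or Control array was left out. Without LN4 replicate 3 and PC3 replicate 4 these counts were 200, 2064, 129 and 147; that fit has 1 residual degree of freedom, so its spread comes from the 2 Control arrays and a prior. The detection-pair block gave 725 at an unadjusted p under 0.05 and 0 past the adjusted p. With the dimmest 50% left out, 6 probe sets separated upward and 8 downward by 1.5-fold, and separated members numbered 9 of the 10 left for B cell, 1 of 7 for proliferation, 7 of 10 for skeletal muscle and 7 of 14 for squamous genes, and the thrombospondin and prosaposin list, with 8 left, had a median of -0.38. Centring each array gave 5 ciliated genes lower. Without the probe sets raised in LN4 replicate 3, 2 of the 3 skeletal muscle genes left were separated and 0 of the 1 squamous gene left, at 0.0503; this setting removes genes high in that array by construction.

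With arrays left out one at a time, list medians ranged from -0.46 to -0.10 for VEGF and angiopoietin, -0.59 to -0.27 for alveolar type 2, -0.95 to -0.0011 for ciliated, -0.31 to -0.0885 for endothelial, -0.29 to -0.10 for immediate early, 0.0316 to 0.35 for glucocorticoid response, 0.11 to 0.28 for fatty acid oxidation, 0.11 to 0.32 for proliferation, 0.14 to 3.61 for skeletal muscle and 0.20 to 5.79 for squamous genes. Separated members ranged from 7 to 16 for glucocorticoid response, 10 to 16 for fatty acid oxidation, 11 to 19 for proliferation, 13 to 21 for skeletal muscle and 12 to 18 for squamous genes (higher), and from 3 to 16 for ciliated and 15 to 21 for immediate early genes (lower). Without LN4 replicate 3 and PC3 replicate 4, the medians were -0.10 for VEGF and angiopoietin, -0.0011 for ciliated, -0.0885 for endothelial, 0.11 for fatty acid oxidation, 0.14 for skeletal muscle and 0.20 for squamous genes, and 16 glucocorticoid genes separated upward. Without LN4 replicate 3, with or without PC3 replicate 4, the median turned to -0.17 for Nrf2 and glutathione, -0.13 for erythroid, -0.18 for fatty acid and sterol synthesis, 0.11 for interferon stimulated and 0.14 for mast cell genes, and without Control replicate 4 to 0.14 for neutrophil genes. The farthest values on the other side, with 1 array left out, were 0.36, 0.29, 0.57, -0.42, -0.37 and -0.38 in that order. The cause was not tested. Leaving out 1 array of a group lets more genes separate by construction, since fewer arrays must lie apart.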

Other observations

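Several dim or unlisted genes had at least 1.5-fold between their nearest LN4 and Control arrays. They were chosen after their values were seen. Tat, tyrosine aminotransferase, a liver gene that glucocorticoids induce, read 6.14 and 5.94 in the Control lungs and 6.92 and 6.86 in the LN4 lungs. Saa3, an acute phase protein, read 5.57 and 5.38 against 6.47 and 6.30. Taf1d read 5.78 and 5.80 against 6.51 and 6.59, and Uhrf1, which maintains DNA methylation, read 5.74 and 5.67 against 6.32 and 6.34. Each had both LN4 arrays above both Control arrays, with all values under background. In the other direction, Cd69, an early activation marker of lymphocytes, read 5.08 and 5.40 against 4.37 and 4.46. Hmcn1, hemicentin-1 of the matrix, had a pair of probe sets that separated downward this far. The brighter of the pair gave 8.18 and 8.33 against 7.45 and 7.45. Spef2, a sperm flagellum and cilium gene, also had such a pair, the brighter at 7.80 and 7.96 against 7.15 and 6.75. For Hmcn1 and Spef2, the brightest probe set of the gene was not in the pair and did not separate this far.

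Of 6 clock activators, 3 separated upward and 1 downward, with a list median of 0.30 and with 5 of 6 higher in both detection pairs. Among them was Arntl at 6.04 and 5.92 against 6.26 and 6.28, under background. Of 13 clock repressors and outputs, with a median of -0.08, 1 separated upward and 4 downward, among them Nr1d1 at 10.17 and 10.53 against 10.00 and 10.16 and Dbp at 9.90 and 9.93 against 9.79 and 9.64. Mesothelial genes, of the pleural surface, had a median of 0.21, with 6 of 15 separated upward and 2 downward. Upk3b read 9.16 and 9.29 against 9.36 and 9.69. Cardiomyocyte genes of the pulmonary veins split by array: Myl4 read 8.53 and 8.55 in the Control lungs, 9.16 in LN4 replicate 1 and 7.94 in LN4 replicate 3.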
